A study of Zea mays with 24 samples.

Results

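The beta, gamma and delta zeins are storage proteins of the maize endosperm, and the transcripts of 6 genes that encode them were followed across the dissected parts of the seed. The genes were taken by identifier: 3 gamma zeins of 27 kDa (Zm00001d020592), 50 kDa (Zm00001d020591) and 16 kDa (Zm00001d005793), the beta zein of 15 kDa (Zm00001d035760), and 2 delta zeins of 10 kDa (Zm00001d045937) and 18 kDa (Zm00001d037436). All 6 were found among the 41614 genes listed by identifier, and all 6 were among the 26543 features that passed the low-count filter. The names were assigned with the choice of genes, because the files list identifiers alone. The alpha zeins, a large family of near-identical genes, are not covered.

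Zeins are prolamins, alcohol-soluble proteins that starchy endosperm cells store in protein bodies inside the endoplasmic reticulum. The gamma and beta zeins are rich in cysteine and form the cross-linked outer shell of a protein body, while the alpha and delta zeins fill its core. The delta zeins are rich in methionine, a sulphur-containing amino acid. The zein genes are known as markers of starchy endosperm and are regulated there by endosperm transcription factors.

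The samples were 6 seed tissues of untreated wild-type B73 maize, with 4 libraries each: endosperm (End), the endosperm next to the scutellum (EAS), the scutellar aleurone layer (SAL), pericarp (Per), embryo (Emb) and apical scutellum (AS). The label of SAL replicate 1 says wild type without the line, and the labels used here give no seed age. Per the labels the plants were raised under glass, with 16 h of light a day, at 24 °C in the light and 19 °C in the dark. From the labels it is unclear whether AS tissue was part of the Emb samples, whether EAS or SAL tissue was part of the End samples, and how many plants a sample pooled. The replicates are called biological in the design text, and p-values cover the spread between these libraries. In dissected bulk tissue, fewer cells of a type and less RNA per cell cannot be told apart.

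Libraries held 37.6 M to 61.1 M reads counted in genes, except SAL replicate 2 with 15.1 M. Levels are given as CPM, the reads of a gene scaled to a common library size with TMM factors, which allow for a few very abundant transcripts. CPM are not corrected for transcript length, so the level of a gene is compared between tissues and not with that of another gene. In a single library, 3 reads corresponded to 0.0450 to 0.162 CPM.

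All 6 genes, known as markers of endosperm, had their highest mean level in End, where 13.8% of all tested features had theirs. The genes were chosen with earlier results of these data known, so this is not an independent check of the End label. Together the 6 genes took 8.19%, 7.27%, 8.67% and 8.20% of the reads counted in genes in End replicates 1 to 4. In EAS they took 5.36%, 3.24%, 4.69% and 4.67%, so each EAS library lay below each End library. The mean share was 8.08% ± 0.587 in End, 4.49% ± 0.893 in EAS, 0.461% ± 0.156 in SAL and 0.536% ± 0.207 in Per (SD, n = 4). In the embryonic tissues it was 0.00180% ± 0.000731 in Emb and 0.00314% ± 0.00178 in AS (SD, n = 4). The tissues thus formed 3 tiers, with End and EAS above SAL and Per, and these above Emb and AS. Wilson 95% intervals of the share in a single library, which cover counting error only, were at most 0.0167 percentage points wide in End and at most 0.000405 in AS.

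**Figure D1:**
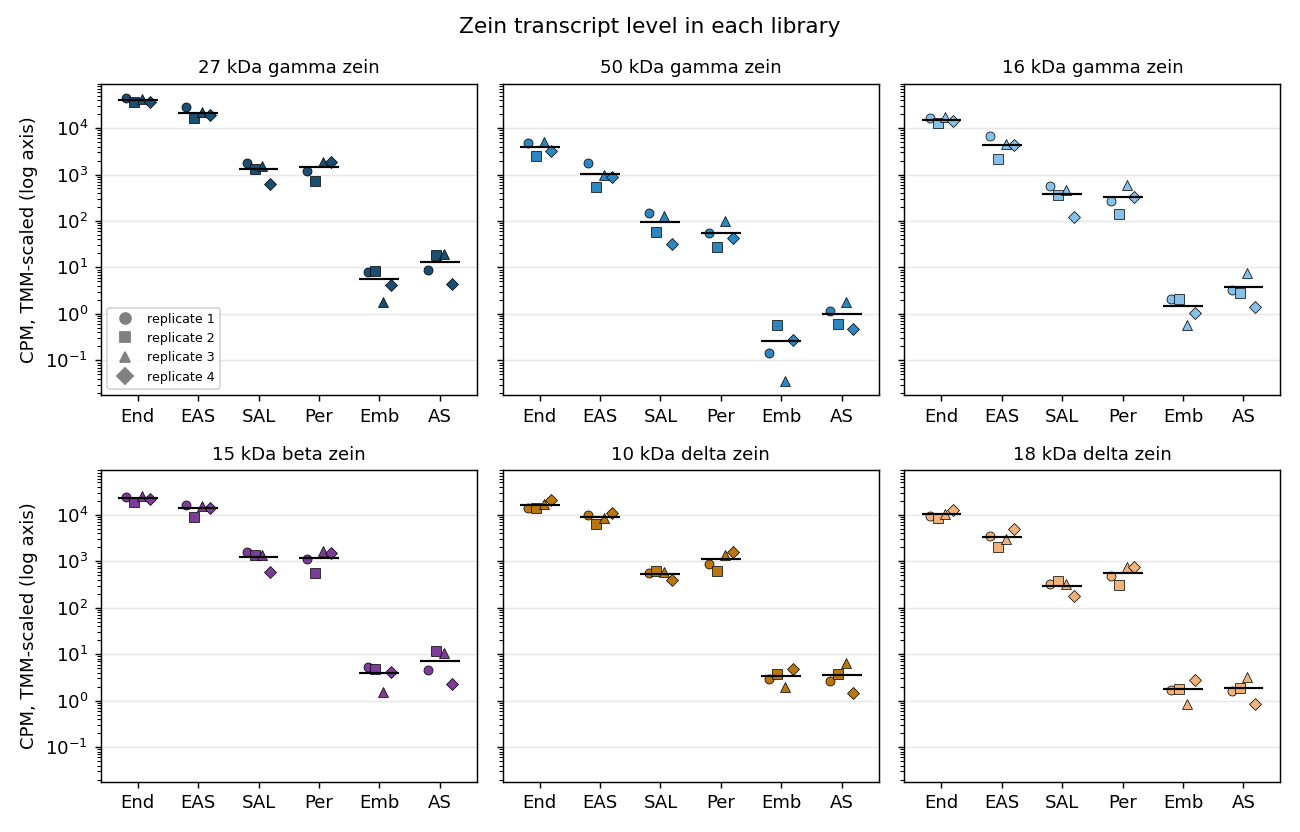
Level of each zein gene in each library, in CPM on a log axis, with 1 point per library, marker shape by replicate number and a line at the mean of the 4 libraries of a tissue. For every gene, End and EAS lie above SAL and Per, which lie above Emb and AS; the 27 kDa gamma zein falls from a mean of 39856 CPM in End to 5.54 CPM in Emb.

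Among the gamma zeins, the 27 kDa gene, whose protein helps to start protein bodies, stood at 44779, 36486, 42569 and 35588 CPM in End replicates 1 to 4. By reads counted, it ranked first of all features in each of the 8 End and EAS libraries. Such a rank depends on transcript length, and near-identical genes such as the alpha zeins can lose reads that are not uniquely placed. The 16 kDa gamma zein, a smaller relative of the 27 kDa protein, stood at 16656, 13106, 16882 and 14117 CPM in End. The 50 kDa gamma zein stood at 4782, 2516, 4904 and 3150 CPM there, and its spread over the 4 libraries (SD 1190 CPM, n = 4) was the largest of the 6 genes relative to its mean. In the RefSeq gene table, made for assembly Zm-B73-REFERENCE-NAM-5.0, the entries gz50 and gz27, its symbols for the 50 kDa and 27 kDa gamma zeins, have 0 genes between them.

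The beta zein, a cysteine-rich shell protein that also contains methionine, was at 24019.9, 19292, 24808 and 22019 CPM in End. The delta zeins were at 13976, 14037, 16670 and 20581 CPM for the 10 kDa gene and 9369, 8368, 10292 and 12972 CPM for the 18 kDa gene. For both delta zeins End replicate 4 was highest, whereas no gamma zein and not the beta zein had its highest End level there. By reads, the beta, the 10 kDa delta and the 16 kDa gamma zein were each among the 8 most abundant features in every End library, and the 18 kDa delta zein ranked from 9 to 13.

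EAS is the endosperm that faces the embryo, and it was compared with the End samples. Whether the End samples held EAS tissue is unclear from the labels. All 6 genes were lower in EAS, with no overlap between the 4 EAS and the 4 End libraries for any of them. How many of all tested features had no overlap was not counted. The size of the difference varied between genes. In EAS the 50 kDa gamma zein was at 1726, 536, 960.1 and 889 CPM, every value below the lowest End library, and it was 3.73-fold higher in End (edgeR log2 difference 1.90 with SE 0.47, adjusted p = 0.00126). The 16 kDa gamma zein was at 6591, 2117, 4470 and 4308 CPM in EAS and 3.47-fold higher in End (edgeR log2 difference 1.80 with SE 0.49, adjusted p = 0.00273). The 18 kDa delta zein was at 3509.9, 2064, 2961 and 4878 CPM in EAS and 3.06-fold higher in End (edgeR log2 difference 1.61 with SE 0.34, adjusted p = 0.000243).

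The other genes of the group differed less between the endosperm samples. The 10 kDa delta zein was at 9702, 6409.8, 8392 and 11075 CPM in EAS and was 1.83-fold higher in End (edgeR log2 difference 0.88 with SE 0.33, adjusted p = 0.0243). The 27 kDa gamma zein, at 28396, 16801, 21889 and 18629 CPM in EAS, missed the threshold (edgeR log2 difference 0.90 with SE 0.42, adjusted p = 0.0704). So did the beta zein, at 16208, 8905, 15769 and 14149 CPM (edgeR log2 difference 0.71 with SE 0.41, adjusted p = 0.134). In total 4 of the 6 genes passed as higher in End, where 32.3% of all tested features did and 62.5% passed in either direction. At 8-fold 0 of the 6 passed as higher in End, against 4.88% of all tested features. The median log2 fold change of the 6 genes was 1.25, and that of all tested features was 0.01.

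The calls near the threshold depended on the fit. In a fit of End and EAS alone, all 6 genes passed, the 27 kDa gamma zein with an edgeR adjusted p of 0.00176 and the beta zein with 0.00778. The share of all tested features that passed in that fit was not counted, so the 6 of 6 has no background. The 27 kDa gene also passed by DESeq2 (adjusted p = 0.0396) and in edgeR without AS replicate 4 (adjusted p = 0.0499) or Emb replicate 3 (adjusted p = 0.0471). The 10 kDa delta zein lost its call without EAS replicate 2 (edgeR adjusted p = 0.0773), EAS replicate 3 (0.0506) or End replicate 4 (0.0738), and without TMM scaling (0.0658).

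**Figure D2:**
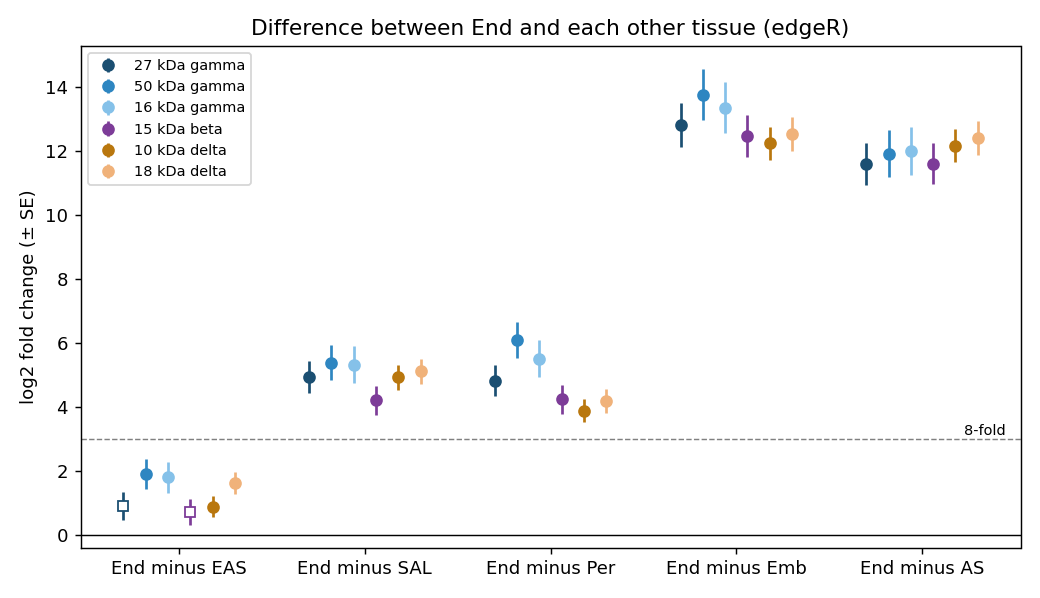
Difference of each zein gene between End and each other tissue as a log2 fold change from edgeR, with bars of 1 SE derived from the F statistic. Filled circles had an adjusted p under 0.05 and open squares did not, which leaves the 27 kDa gamma and 15 kDa beta zeins open in the comparison with EAS; the dashed line marks 8-fold, which all 6 genes exceed in the other 4 comparisons.

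Within a library, the ratio of 2 genes is free of scaling and depth, and it showed that the make-up of the zein reads differed between End and EAS. The reads of the 16 kDa gamma zein per read of the 27 kDa gamma zein were 0.372, 0.359, 0.397 and 0.397 in End and 0.232, 0.126, 0.204 and 0.231 in EAS, without overlap. The reads of the 18 kDa delta zein per read of the 10 kDa delta zein were 0.670, 0.596, 0.617 and 0.630 in End and 0.362, 0.322, 0.353 and 0.440 in EAS, again without overlap. Among the gamma and among the delta zeins, 1 gene thus lay further below its End level in EAS than another. By contrast, the 50 kDa per 16 kDa gamma zein ratio spanned 0.192 to 0.290 in End and 0.206 to 0.262 in EAS, so these libraries overlapped. The ratio of the 10 kDa delta to the 27 kDa gamma zein also overlapped, with 0.312 to 0.578 in End and 0.342 to 0.594 in EAS. So did that of the beta to the 27 kDa gamma zein, with 0.529 to 0.619 in End and 0.530 to 0.760 in EAS. The ratio of the 50 kDa to the 27 kDa gamma zein did not overlap, with 0.0690 to 0.115 in End and 0.0319 to 0.0608 in EAS. No test was run on these ratios.

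In the aleurone layer and the maternal pericarp the zein transcripts were far below the endosperm, and they differed less between these tissues than from End. All 6 genes were called 8-fold higher in End than in SAL, where 1.98% of all tested features were, and than in Per, where 3.28% were. Compared with EAS, 6 of 6 were 8-fold lower in SAL (background 2.07%), or 4 of 6 without TMM scaling, and 5 of 6 in Per (background 3.68%). The 27 kDa gamma zein was at 1784, 1306, 1493 and 635 CPM in SAL replicates 1 to 4. It was at 1201, 718, 1861 and 1887 CPM in Per replicates 1 to 4, a range that overlapped that of SAL. It was 30.6-fold higher in End than in SAL (edgeR log2 difference 4.93 with SE 0.50, adjusted p = 6.11e-09) and 28.1-fold higher than in Per (edgeR log2 difference 4.81 with SE 0.49, adjusted p = 5.74e-09).

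The distance from End was not the same for every gene. Against SAL, the fold ranged from 18.4 for the beta zein to 41.3 for the 50 kDa gamma zein, with a median log2 fold change of 5.02 for the 6 genes and -0.24 for all tested features. Against Per, it ranged from 14.7 for the 10 kDa delta zein to 68.2 for the 50 kDa gamma zein, with medians of 4.52 and -0.12. Without TMM scaling the median of all features shifted by -0.68 in End against SAL and by -0.61 in End against Per, and each of the 6 genes moved with it, by 1.60 to 1.61 times and by 1.52 to 1.54 times, while all stayed above 8-fold. In EAS against Per, the 18 kDa delta zein was 5.87-fold higher in EAS, and the 10 kDa delta zein was at 8.03-fold, on the threshold. It was under 8-fold without EAS replicate 1 or 4, without Per replicate 1 or 2, and under 5 other settings, DESeq2 among them, which left 4 of 6.

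Between SAL and Per, 2 of the 6 genes passed, both delta zeins and both higher in Per, a share close to that of all tested features (34.8% higher in Per, out of 70.9% that passed in either direction). The 10 kDa delta zein was at 561, 628, 585 and 391 CPM in SAL and 862, 623, 1378 and 1570.2 CPM in Per, where Per replicate 2 alone lay below a SAL library. It was 2.05-fold higher in Per (edgeR log2 difference of SAL minus Per -1.03 with SE 0.33, adjusted p = 0.00783). The 18 kDa delta zein was at 320, 368, 320 and 181 CPM in SAL and 481, 313, 736 and 755 CPM in Per, and was 1.92-fold higher in Per (edgeR log2 difference -0.94 with SE 0.33, adjusted p = 0.0146). This call was lost without Per replicate 3 (edgeR adjusted p = 0.0503), Per replicate 4 (0.0517) or SAL replicate 4 (0.055). None of the 6 genes passed as higher in SAL, where 36.1% of features did.

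The gamma and beta zeins did not pass between SAL and Per. The beta zein was at 1585, 1339.95, 1384 and 600.3 CPM in SAL and 1125, 563, 1626 and 1491 CPM in Per (edgeR log2 difference 0.03 with SE 0.40, adjusted p = 0.953). The 16 kDa gamma zein was at 568, 361, 475 and 120.03 CPM in SAL and 267, 139, 602 and 333 CPM in Per (edgeR log2 difference 0.19 with SE 0.47, adjusted p = 0.739). For both genes the ranges of the tissues overlapped widely. The 50 kDa gamma zein, at 152, 59.2, 128 and 31.8 CPM in SAL and 56.0, 26.9, 99.4 and 43.1 CPM in Per, missed the threshold (edgeR log2 difference 0.72 with SE 0.46, adjusted p = 0.166) and passed without Per replicate 3 (0.0413) or SAL replicate 4 (0.0481). The log2 fold change of the 27 kDa gamma zein was -0.12 (SE 0.42, edgeR adjusted p = 0.811), and for it and for the beta and 16 kDa gamma zeins the sign turned when single libraries were left out.

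The mix of zein reads in SAL and Per also differed from that in End. The beta zein made up 30.6% to 32.99% of the reads of the 6 genes in the SAL libraries and 20.3% to 21.4% in the End libraries. Per read of the 27 kDa gamma zein there were 0.889 to 1.03 reads of the beta zein in SAL, 0.784 to 0.937 in Per and 0.529 to 0.619 in End, so that each SAL and Per library lay above each End library. The 10 kDa delta zein took 21.6% to 26.1% in Per, above the 12.3% to 19.0% in End and 11.3% to 20.0% in SAL, while the Emb libraries spanned 14.4% to 29.0%. Of the same reads, the 16 kDa gamma zein took 13.02% to 14.7% in End, 6.13% to 11.4% in SAL and 5.48% to 9.54% in Per. Whether endosperm tissue in the dissected SAL and Per samples added to these reads was not tested.

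**Figure D3:**
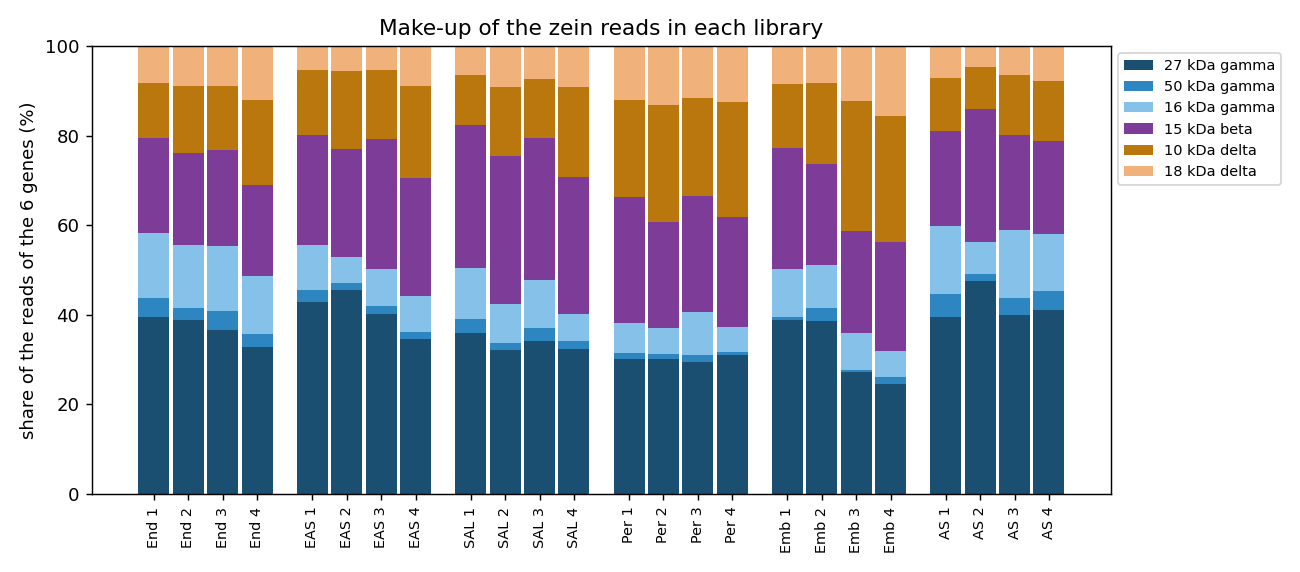
Share of each zein gene in the reads of the 6 genes, in percent, with 1 bar per library. The 16 kDa gamma zein takes 13.02% to 14.7% in the End libraries and at most 9.97% in the EAS libraries, and the beta zein takes at least 30.6% in each SAL library.

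Zein transcripts were at their lowest in the embryonic samples, and each of the 6 genes had reads in every library. The 27 kDa gamma zein had 375, 549, 101 and 207 reads in Emb replicates 1 to 4, or 7.79, 8.23, 1.84 and 4.28 CPM. In AS replicates 1 to 4 it had 426, 949, 974 and 223 reads, or 8.69, 18.9, 19.6 and 4.50 CPM. Emb replicate 3 held the fewest reads, and the ranges of the tissues overlapped. Its level in End was 7183-fold higher than in Emb (edgeR log2 difference 12.81 with SE 0.68, adjusted p = 5.63e-14) and 3087-fold higher than in AS (edgeR log2 difference 11.59 with SE 0.66, adjusted p = 1.53e-13).

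The remaining genes showed the same gap. All 6 were called 8-fold higher in End than in Emb, where 10.9% of all tested features were, and than in AS, where 12.6% were. The log2 fold changes ran from 12.23 for the 10 kDa delta zein to 13.76 for the 50 kDa gamma zein against Emb, and from 11.59 for the 27 kDa gamma zein to 12.41 for the 18 kDa delta zein against AS. The median over the 6 genes was 12.66 against Emb and 11.95 against AS, and that of all tested features was 0 and 0.05. The 50 kDa gamma zein had 7, 39, 2 and 13 reads in the Emb libraries, of which the 2 reads of replicate 3 are below the 3 reads that a count of 0 allows. Its level in Emb rested on replicate 2: the mean was 0.259 CPM with that library and 0.150 CPM without it, and the log2 fold change against End then rose from 13.76 to 14.65.

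SAL and Per also stood above the embryonic tissues. All 6 genes were called 8-fold higher in SAL than in Emb (background 13.4%) and than in AS (background 15.3%), and likewise in Per against Emb (background 15%) and AS (background 16.8%). The beta zein was 307-fold higher in SAL than in Emb (edgeR log2 difference 8.26 with SE 0.56, adjusted p = 6.78e-12) and 301-fold higher in Per than in Emb (edgeR log2 difference 8.23 with SE 0.56, adjusted p = 4.56e-12). Without Emb replicate 2, the log2 fold change of the 50 kDa gamma zein moved from 8.39 to 9.28 in SAL against Emb, from 7.66 to 8.56 in Per against Emb and from 11.85 to 12.75 in EAS against Emb. EAS was 8-fold higher than Emb (background 10.3%) and AS (background 11.4%) for all 6 genes as well.

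Between Emb and AS, 1 of the 6 genes passed. The 27 kDa gamma zein was 2.33-fold higher in AS (edgeR log2 difference of Emb minus AS -1.22 with SE 0.45, adjusted p = 0.0348), a direction in which 18.7% of all tested features were called, out of 37.8% in both. The call was lost without AS replicate 2 (edgeR adjusted p = 0.107), AS replicate 3 (0.13), Emb replicate 3 (0.106) or Emb replicate 4 (0.0913), and in a fit of Emb and AS alone (0.0794). The other gamma zeins had log2 fold changes of -1.85 for 50 kDa (edgeR adjusted p = 0.0765) and -1.36 for 16 kDa (edgeR adjusted p = 0.0626), and the beta zein -0.87 (edgeR adjusted p = 0.126). The delta zeins were at nearly equal means, 3.39 CPM in Emb and 3.58 CPM in AS for the 10 kDa gene and 1.76 and 1.88 CPM for the 18 kDa gene, with edgeR adjusted p of 0.912 and 0.879. Their libraries overlapped, and the sign of their difference turned when single libraries were left out.

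Some of the genes that missed the threshold between Emb and AS passed in other fits. With the replicate number as a block, the 50 kDa gamma zein passed (log2 fold change -1.70, edgeR adjusted p = 0.0382), which made 2 of 6, and it also passed in the fit of Emb and AS alone (-1.87, edgeR adjusted p = 0.0326) and without Emb replicate 2 (0.0408). The 16 kDa gamma zein passed without AS replicate 4 (0.0344) or SAL replicate 4 (0.0404), and the beta zein passed without AS replicate 4 (0.0373). By DESeq2, 3 of the 6 genes passed: the 27 kDa, the 50 kDa (adjusted p = 0.0081) and the 16 kDa gamma zein (adjusted p = 0.0246). The share of all tested features that passed in these other fits was not counted, so these counts have no background.

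The few zein reads of the embryonic samples came from all 6 genes. The 27 kDa gamma zein took 39.5% to 47.5% of the reads of the 6 genes in AS, 24.5% to 38.9% in Emb and 32.8% to 39.4% in End. For the 16 kDa gamma zein this share was 7.21% to 15.2% in AS and 5.92% to 10.7% in Emb. These shares rest on 543 to 2435 reads per library in AS and 372 to 1419 in Emb, and their Wilson 95% intervals were up to 8.25 percentage points wide in AS and 9.19 in Emb. Within AS all 6 genes were lowest in replicate 4, and 5 of 6 were highest in replicate 3. Within Emb all 6 were lowest in replicate 3, while the highest library was replicate 1, 2 or 4, for 2 genes each. Whether endosperm tissue or RNA in these samples gave the reads was not tested.

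In EAS, SAL and Per too the genes shared their lowest library but not their highest. All 6 genes were lowest in EAS replicate 2 within EAS, in SAL replicate 4 within SAL and in Per replicate 2 within Per. For these tissues and for Emb and AS, how many of all tested features had the same lowest library was not counted. The highest library was replicate 1 for 4 genes and replicate 4 for 2 in EAS, replicate 1 for 4 and replicate 2 for 2 in SAL, and replicate 3 for 3 and replicate 4 for 3 in Per. End differed, in that 4 of the 6 were lowest in replicate 2 and the 27 kDa gamma and the 10 kDa delta zein were lowest in replicates 4 and 1. From the lowest to the highest library, the summed share of the 6 genes spanned 1.19-fold in End, 1.65-fold in EAS, 2.51-fold in SAL, 2.61-fold in Per, 3.14-fold in Emb and 4.53-fold in AS.

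In End, EAS, SAL and Emb the ratio of the 10 kDa delta to the 27 kDa gamma zein was lowest in replicate 1 and highest in replicate 4. The labels tie the replicate number to the day of harvest. Libraries numbered 1 are dated 27 April, those numbered 2 are dated 1 May, those numbered 3 are dated 4 May and those numbered 4 are dated 18 May. Among them EAS replicate 3 is instead labelled 5 April, the label of Emb replicate 1 gives another year, and SAL replicate 4 has no date. Per read of the 27 kDa gamma zein, End replicates 1 to 4 held 0.312, 0.385, 0.392 and 0.578 reads of the 10 kDa delta zein. The EAS libraries held 0.342, 0.382, 0.383 and 0.594, and the SAL libraries 0.315, 0.481, 0.392 and 0.615. In these tissues replicate 1 was lowest and replicate 4 highest.

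The Emb libraries had the same lowest and highest replicates, with 0.371, 0.464, 1.07 and 1.14. The ratio was 0.718, 0.868, 0.740 and 0.832 in Per, where replicate 2 was highest, and 0.298, 0.197, 0.334 and 0.327 in AS, where replicate 2 was lowest and replicate 3 highest. Replicate 4 was above replicate 1 in 6 of 6 tissues, by 1.10-fold in AS to 3.09-fold in Emb, and replicate 1 was the lowest in 5 of 6. In AS this rested on 127 reads of the 10 kDa delta and 426 of the 27 kDa gamma zein in replicate 1. In AS replicate 4 it rested on 73 and 223 reads. The tissues share the replicate numbers, so they are not separate observations of the pattern. How many other pairs of genes had the same order was not counted. The pattern was noticed in the data and was not tested. With 1 library per tissue and number, harvest day and any other step shared by a number cannot be told apart. In replicates 1 and 4 the beta per 27 kDa gamma zein ratio was 0.536 and 0.619 in End and 0.571 and 0.760 in EAS. It was 0.889 and 0.945 in SAL and 0.693 and 0.990 in Emb, so replicate 4 was higher in these tissues. In Per (0.937 and 0.790) and AS (0.538 and 0.507) replicate 4 was lower. This ratio was not tested.

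**Figure D4:**
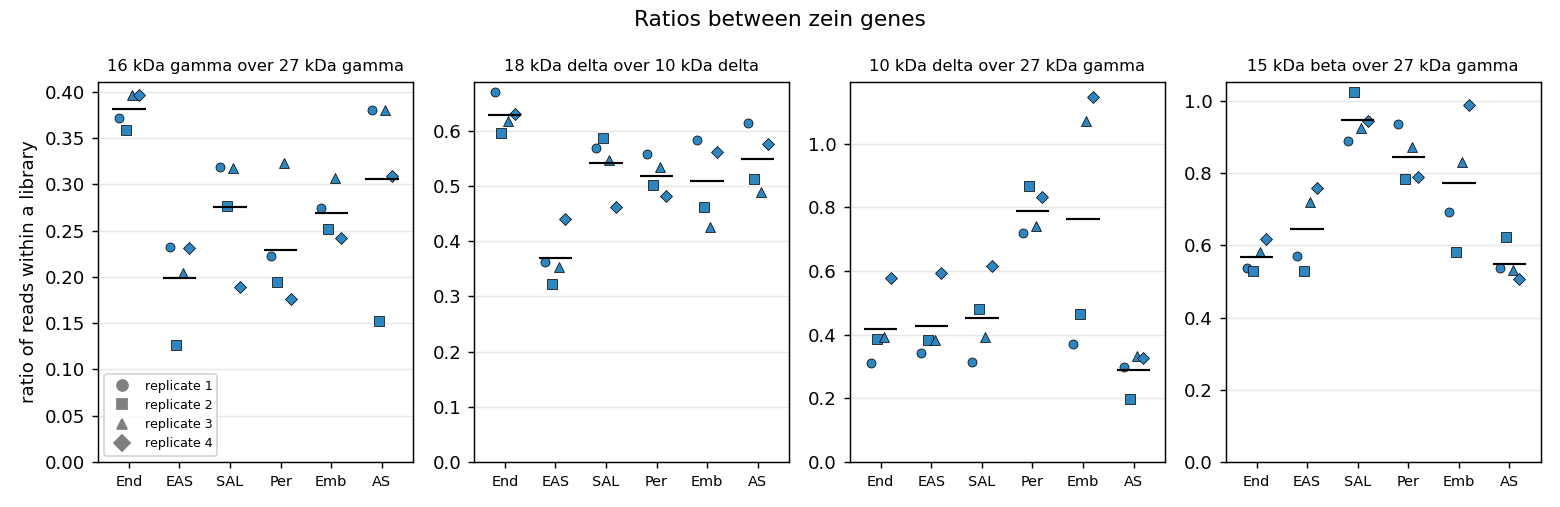
Reads of a zein gene per read of another in the same library, with marker shape by replicate number and a line at the mean of the 4 libraries of a tissue. The 16 kDa per 27 kDa and 18 kDa per 10 kDa ratios separate End from EAS, the 10 kDa per 27 kDa ratio is highest in replicate 4 in End, EAS, SAL and Emb, and the 15 kDa per 27 kDa ratio is above the End libraries in every SAL and Per library.

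Across the 24 libraries, log2 CPM of any pair of the 6 genes correlated with Pearson's r of 0.976 to 0.999, a description of points that share tissues and libraries. The 50 kDa gamma zein followed the mean of the other 5 genes least closely, with r = 0.988, and the 27 kDa gamma zein most closely, with r = 0.998. Among 9156 other features with a mean of at least 20 CPM in End, the pattern most like the mean of the 6 genes was that of Zm00001d005230 (r = 0.999 over 24 libraries), at a mean of 6932 CPM in End, 2988 in EAS, 237 in SAL, 317 in Per, 1.02 in Emb and 1.93 in AS. Next was Zm00001d038597 (Pearson's r = 0.999), at 2069.8 CPM in End, 869.5 in EAS, 85.6 in SAL, 65.0 in Per, 0.253 in Emb and 0.507 in AS. Neither identifier has a name in the tables used here.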

How the data were processed

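The authors deposited 1 file of raw read counts per library. TopHat2, Bowtie2 and the build B73 RefGen_v4 are named in the submitters' processing notes, and the labels' protocols give poly(A)-selected, paired-end, unstranded TruSeq libraries. For the counter's settings, tool versions and annotation release: not given in the sources used here. Summary rows at the end of a file entered neither library sizes nor tests. Alignments not uniquely placed made up 7.81% to 16.2% of all rows' counts, so related genes can lose reads, and reads outside genes 4.24% to 6.41%. The RefSeq table holds 0 of the 41614 identifiers. Other zein-pathway genes and tissue markers could therefore not be looked up, and no gene length or sequence was used.

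Counts were fitted in R 4.3.3 with edgeR 4.0.16: filterByExpr by tissue with a minimum count of 10, TMM factors, and a quasi-likelihood model of the 24 libraries with tissue as its term, tested in 15 comparisons by glmQLFTest. Adjusted p-values are Benjamini-Hochberg values over the 26543 features of a comparison, with a threshold of 0.05, and the 8-fold rule adds a log2 fold change of at least 3. The SE is the log2 fold change divided by the square root of F, not a fitted standard error. The procedure was run on simulated counts with changes in End alone and no effect shared by a replicate number. These data differ from that setting, so the run does not cover them. Likeness used log2 CPM with a prior count of 1. The genes named are the 6 members and the 2 features most like them. DESeq2 1.42.0, other scalings and filters, fits of 2 tissues, a replicate block and leaving out each library were the alternatives. The genes, lists and rules were chosen with earlier results of these data known.

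Equal replicate numbers share a harvest day per the labels, with the exceptions given, and so pair the libraries. Deviations from the tissue means correlated with a median r of 0.08 over 60 pairs with the same number, 20 of them over 0.1. Over 180 pairs with different numbers the median r was -0.03, with 4 of them over 0.1. Because deviations from a tissue mean cancel within the tissue, the medians of both kinds of pairs are tied and are not separate results. No replicates were duplicates (chi-square per degree of freedom of 7.32 or more).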

Additional observations from a re-analysis of the deposited data

Results flagged for a closer look

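In 2 of 78 groups of 4 libraries examined (levels, shares of the 6 genes and their sum, by tissue), a single library lay far from the others by Dixon's criterion, which chance gives in about 1 in 20 groups. In AS, the 15 kDa beta zein took 29.6% of the reads of the 6 genes in replicate 2 and 20.8% to 21.3% in the other libraries, so the gap was 0.948 of the range. In EAS, the 18 kDa delta zein took 9.05% in replicate 4 and 5.31% to 5.60% in the others, a gap of 0.921 of the range.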

How the results depend on the processing

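The 8-fold counts stayed at 6 of 6 or 0 of 6 genes under every alternative run, except in EAS against Per (4 or 5) and in EAS against SAL without TMM scaling (4). The count of genes that differed between Emb and AS was 1, with 2 under the replicate block, 3 by DESeq2 and 0 to 3 when single libraries were left out. Between SAL and Per it was 2, and 1 to 2 when single libraries were left out. Between End and EAS it was 4, with 3 without TMM scaling, 5 by DESeq2, 6 in the fit of these tissues alone and 3 to 5 when single libraries were left out. The share of all tested features that passed was not counted in any of the alternatives. The replicate block changed no other call. Signs turned only where no call was made. The beta zein in SAL against Per had log2 fold changes of -0.0137 with DESeq2 size factors, -0.0072 with the replicate block and -0.0137 by DESeq2, and -0.21 to 0.26 when single libraries were left out. For the 27 kDa and 16 kDa gamma zeins in that comparison these ranges were -0.34 to 0.11 and -0.0725 to 0.63. In Emb against AS they were -0.31 to 0.39 for the 10 kDa delta zein, which stood at 0.0085 without TMM scaling, and -0.39 to 0.27 for the 18 kDa delta zein. The cause of these changes was not tested. Without TMM scaling, 6 mean levels moved by more than their SD, 5 of them in End and lower. Depth limits the 50 kDa gamma zein in Emb, at 2 to 39 reads per library.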
